A study of Mus musculus with 12 samples.

Results

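The messenger RNA of 7 genes for subunits of the GABA-A receptor was followed in whole embryonic mouse brains: *Gabra2*, *Gabra3*, *Gabra4* and *Gabra5* (alpha subunits), *Gabrb1* and *Gabrb2* (beta subunits) and *Gabrg1* (a gamma subunit). They were taken from the deposited tables by gene symbol, and make up 7 of 13770 gene models and, with 13 listed transcripts, 13 of 29097 transcripts. The samples were 12 brains of C57BL/6 mice (C57BL/6J in the study's methods) at embryonic day 18, with 1 library from each. The 6 PAE (prenatal alcohol exposure) brains came from dams that drank ethanol sweetened with saccharin before and throughout pregnancy, and were ES19-4, ES23-7 and ES27-4 (female) and ES19-8, ES23-4 and ES27-1 (male). The 6 SAC (control) brains came from dams that drank the saccharin solution alone, so that both groups were exposed to saccharin, and were SAC12-5, SAC26-5 and SAC26-7 (female) and SAC12-6, SAC12-7 and SAC26-8 (male). The name prefixes (3 in PAE, 2 in SAC) may or may not stand for litters, which no label states, and the brains were treated as separate animals, so that each p-value reflects the spread among them alone.

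GABA-A receptors are chloride channels built as pentamers around a pore and opened by the transmitter GABA. Alpha and beta subunits form the GABA binding sites, a gamma subunit beside an alpha subunit forms the benzodiazepine site, and the alpha subunit sets much of the receptor's location and pharmacology. In the embryonic brain chloride is high inside neurons, so that opening these channels tends to depolarise the cell, and receptors with alpha2, alpha3 and alpha5 are prominent before birth. These receptors are also among the channels whose currents ethanol can alter.

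The 7 genes lie in 4 places of the mouse genome (GRCm38). *Gabrg1* (chr5:70751047-70842617), *Gabra2* (chr5:70957597-71095849) and *Gabra4* (chr5:71569749-71658308) follow each other on the minus strand of chromosome 5, and *Gabrb1* (chr5:71658113-72149037) runs from there on the plus strand. *Gabra4* and *Gabrb1* start head to head and share 196 bases, 46 of them exonic, so that reads from those bases could be counted for either gene if strand was not used. *Gabra5* lies on chromosome 7 (chr7:57407672-57510059, minus strand), *Gabrb2* on chromosome 11 (chr11:42419757-42629028, plus strand) and *Gabra3* on the X chromosome (chrX:72432681-72656848, minus strand).

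Promoter windows of 250 bases before to 50 bases after each start were taken from RefSeq (GRCm38.p6), which held 11 windows for all 7 genes. Those of the 3 genes that were lower in PAE brains (below) are printed 5′ to 3′ on the gene's strand, so that their make-up can be compared. *Gabrb1* is shown at both of its RefSeq starts and *Gabra3* at the nearer of its 2 windows to a listed transcript. Capitals mark matches to 4 motifs searched on both strands, the TATA box core TATAAA, the cyclic AMP response element TGACGTCA, the GC box core GGGCGG and the NRF-1 palindrome GCGCATGCGC, which do not overlap each other here.
Gabrb1, inner start (chr5:71699682-71699981, plus strand): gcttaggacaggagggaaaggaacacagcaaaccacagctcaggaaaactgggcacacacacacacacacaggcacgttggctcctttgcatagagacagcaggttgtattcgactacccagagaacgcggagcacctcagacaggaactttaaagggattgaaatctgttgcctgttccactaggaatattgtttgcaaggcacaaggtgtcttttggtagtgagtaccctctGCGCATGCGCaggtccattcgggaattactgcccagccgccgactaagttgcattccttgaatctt
Gabrb1, outer start (chr5:71657671-71657970, plus strand): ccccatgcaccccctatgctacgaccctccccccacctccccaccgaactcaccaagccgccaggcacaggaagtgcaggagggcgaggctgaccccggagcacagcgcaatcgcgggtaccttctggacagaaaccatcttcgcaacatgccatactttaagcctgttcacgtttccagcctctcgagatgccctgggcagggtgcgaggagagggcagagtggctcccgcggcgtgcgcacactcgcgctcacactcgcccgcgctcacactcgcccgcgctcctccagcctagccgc
Gabra3 (chrX:72656758-72657057, minus strand): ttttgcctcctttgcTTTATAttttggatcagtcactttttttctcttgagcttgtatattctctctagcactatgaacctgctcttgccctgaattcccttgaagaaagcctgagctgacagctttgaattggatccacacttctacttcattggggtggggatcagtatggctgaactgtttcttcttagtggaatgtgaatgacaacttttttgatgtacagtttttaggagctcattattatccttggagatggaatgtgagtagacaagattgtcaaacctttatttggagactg
Gabrg1 (chr5:70842568-70842867, minus strand): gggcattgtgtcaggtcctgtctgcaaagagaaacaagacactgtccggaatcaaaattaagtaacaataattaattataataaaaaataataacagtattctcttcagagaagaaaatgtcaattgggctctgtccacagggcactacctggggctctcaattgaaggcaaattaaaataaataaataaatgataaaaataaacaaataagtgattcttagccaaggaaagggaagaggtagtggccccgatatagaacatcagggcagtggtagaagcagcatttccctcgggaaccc
The 4 windows differed in their number of CG dinucleotides, but not all differed in base composition. G and C made up 39.3% of the *Gabra3* window and 38.3% of that of *Gabrg1*. The *Gabrb1* windows had 50.3% (inner) and 66.0% (outer). The inner *Gabrb1* window holds 9 CG dinucleotides, the outer *Gabrb1* window 25, that of *Gabrg1* 3 and that of *Gabra3* 0, against a median of 7 over all 32851 windows. The inner start of *Gabrb1*, which begins at the same base as the transcript that carried most of its signal, has the full NRF-1 palindrome from 16 bases before the start, and 0.971% of all windows hold it. The *Gabra3* window has TATAAA on the opposite strand, 235 bases before the start, a match found in 13.6% of all windows. No window of the 7 genes held TGACGTCA, found in 1.79% of all windows, and GGGCGG, found in 35.7%, occurred in windows of *Gabra2*, *Gabra4* and *Gabrb2*. The start site of the outer *Gabrb1* window lies 192 bases, and that of the *Gabra3* window 41 bases, from the nearest start among the listed transcripts. For the outer *Gabrb1* window that is *Gabrb1-202*, whose start falls outside the window. For *Gabra3* that is the minor transcript *Gabra3-202*, and the main one, *Gabra3-201*, starts 621 bases away and outside the window. A match is a run of letters and was not tested as a binding site.

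The libraries were alike in total signal, between 218026 and 232863 FPKM (fragments assigned to a transcript, scaled to its length and to the library's total) summed over the gene models, and depth in reads is unknown. The 12 pan-neuronal markers summed to between 1760 and 2060 FPKM in PAE brains and between 1950 and 2030 FPKM in SAC brains, and none was at 0. The brains differed in regional markers. The mean over 15 Hox genes, a family active in hindbrain and spinal cord and silent in forebrain, was between 0.00317 and 0.0119 FPKM in 5 PAE brains and 4.32 FPKM in ES19-4, against 1.72 to 4.82 FPKM in 5 SAC brains, with SAC12-6 at 0.0309 FPKM. These 2 libraries stood with the other group, and values of the 7 genes without them are given after the subunits.

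Of the 7 subunit genes, 3 were lower in PAE brains by their gene FPKM and none was higher. They were *Gabra3*, *Gabrb1* and *Gabrg1*, each lower by 20.0% to 23.2% in mean FPKM (limma on log2(FPKM + 1), Benjamini-Hochberg adjusted p under 0.05 over 12346 genes). Of all genes tested, 5.22% were lower and 4.34% were higher by the same test. At an unadjusted p under 0.05 none of the 7 was higher either, where 13.7% of all genes were. All 7 genes passed the minimum of a mean of 1 FPKM. The log2 fold change was below 0 in 6 of 7, against 48.3% of all genes, with a median of -0.26 over the 7 genes and 0.005 over all genes. Since whole brains were sequenced, fewer cells that express a subunit and less RNA per cell cannot be told apart. The groups also differed in Hox level (above), and with that level as a covariate none of the 3 passed (below). How far the regional make-up of the samples entered these differences was not tested.

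**Figure D1:**
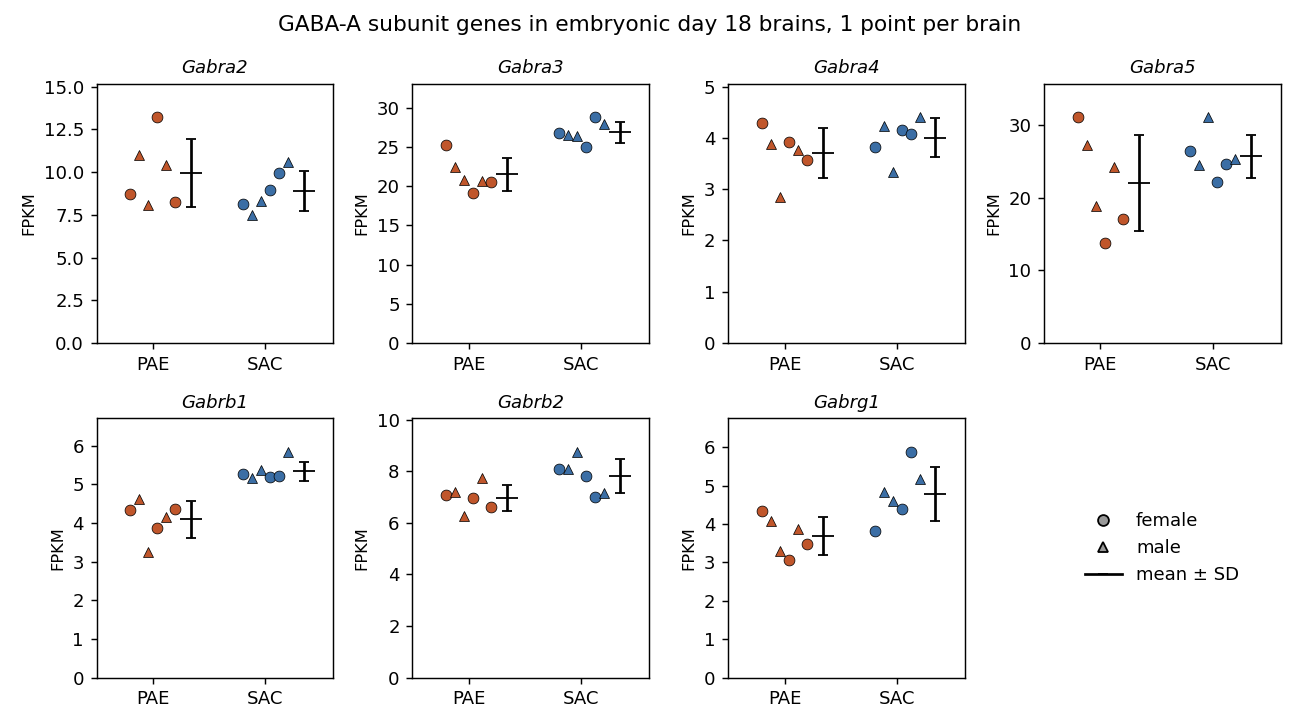
FPKM of each of the 7 subunit genes (vertical axis, from 0) in PAE (left) and SAC (right) brains, 1 point per brain, circles for females and triangles for males, with the mean ± SD beside them (n = 6 per group). For *Gabrb1* all PAE points lie below all SAC points, whereas for *Gabra2* and *Gabra4* the groups overlap widely.

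Among the alpha subunits, *Gabra3* fell. Alpha3 is carried by many monoaminergic and brainstem neurons and by embryonic cortex. *Gabra3* had 19.2, 20.8 and 25.3 FPKM (lowest, median and highest brain) in PAE brains, against 25.0, 26.7 and 28.8 FPKM in SAC brains. The groups overlapped through a single PAE brain, ES19-4, and the other 5 PAE brains lay below every SAC brain. Its mean was 21.5 ± 2.11 FPKM in PAE brains and 26.9 ± 1.31 FPKM in SAC brains (SD, n = 6 each), giving a log2 fold change of -0.31 (SE 0.058, limma adjusted p = 0.0189). Being X-linked, *Gabra3* was also compared by sex, and its female minus male difference was 0.00 on the log2 scale (95% interval -0.13 to 0.14).

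*Gabra5*, the alpha subunit of many extrasynaptic receptors of the hippocampus, was the most variable of the 7 genes in PAE brains. It had 13.8, 21.5 and 31.1 FPKM in PAE brains, against 22.2, 25.0 and 31.1 FPKM in SAC brains. The lowest 3 PAE brains (ES23-7, ES27-4 and ES23-4) lay below every SAC brain, while ES19-4 and the highest SAC brain, SAC12-7, were both at 31.1 FPKM. The coefficient of variation was 29.9% in PAE brains and 11.6% in SAC brains (where *Gabrg1*, at 14.6%, was the most variable), and the log2 fold change of -0.26 (SE 0.162) did not pass the test (limma adjusted p = 0.314, 95% interval -0.61 to 0.09). It was -0.14 when ES23-7 was left out, -0.36 when ES19-4 was left out and -0.07 with the Hox covariate, and passed in none of these.

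*Gabra2*, an alpha subunit found at many synapses of the developing forebrain, was the only one of the 7 with a positive fold change, and it did not pass the test. It had 8.07, 9.55 and 13.2 FPKM in PAE brains, against 7.48, 8.61 and 10.6 FPKM in SAC brains. The 2 highest PAE brains, ES23-7 and ES19-8, lay above every SAC brain and the others were spread among them. The log2 fold change was 0.13 (SE 0.113, 95% interval -0.11 to 0.38, limma adjusted p = 0.462), and 0.06 without ES23-7. ES23-7 held both the highest *Gabra2* and the lowest *Gabra5* of all 12 brains.

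*Gabra4*, the alpha subunit that joins the delta subunit in extrasynaptic receptors of adult thalamus and dentate gyrus, was low in both groups. It had 2.84, 3.83 and 4.29 FPKM in PAE brains, against 3.33, 4.12 and 4.40 FPKM in SAC brains, and the ranges overlapped over most of their length. Its log2 fold change of -0.09 (SE 0.0773, 95% interval -0.26 to 0.08) did not pass the test (limma adjusted p = 0.475), and was -0.03 when ES23-4 was left out and -0.04 with the Hox covariate.

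Of the beta subunits, *Gabrb1* was the gene with the clearest separation. It had 3.26, 4.25 and 4.62 FPKM in PAE brains, against 5.17, 5.23 and 5.83 FPKM in SAC brains. No PAE brain reached the lowest SAC brain, a pattern that 1.92% of all genes showed in this direction. *Gabrb1* averaged 4.10 ± 0.483 FPKM in PAE brains and 5.34 ± 0.254 FPKM in SAC brains (SD, n = 6 each), giving a log2 fold change of -0.32 (SE 0.0642, limma adjusted p = 0.0203). An exact two-sided permutation test that redrew the groups in every possible way gave p = 0.00216 for *Gabrb1*. That is the smallest these splits can give, and it follows from the full separation of the groups, so it adds nothing to it. By the same test the unadjusted p was 0.00433 for *Gabra3*, 0.013 for *Gabrg1* and 0.0303 for *Gabrb2*. It was 0.193 for *Gabra5*, 0.301 for *Gabra4* and 0.303 for *Gabra2*.

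*Gabrb2*, a beta subunit common in receptors of the adult brain, had 6.25, 7.02 and 7.75 FPKM in PAE brains, against 7.02, 7.93 and 8.74 FPKM in SAC brains. The 3 lowest PAE brains lay below every SAC brain, and the 2 lowest SAC brains, SAC26-7 and SAC26-8, lay within the PAE range. The log2 fold change of -0.14 (SE 0.0585) had an unadjusted p of 0.0295 and did not pass after adjustment (limma adjusted p = 0.130).

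*Gabrg1*, a gamma subunit found also in astrocytes, lay close to the threshold. It had 3.07, 3.67 and 4.34 FPKM in PAE brains, against 3.83, 4.72 and 5.87 FPKM in SAC brains. The groups overlapped through SAC12-5, the lowest SAC brain, which lay below 3 PAE brains. *Gabrg1* averaged 3.68 ± 0.485 FPKM in PAE brains and 4.78 ± 0.697 FPKM in SAC brains (SD, n = 6 each), giving a log2 fold change of -0.30 (SE 0.0885, limma adjusted p = 0.0488). The call was lost when genes of any level were tested (adjusted p = 0.0513) and when any brain other than ES19-4 was left out (adjusted p up to 0.112). With 1 brain left out its fold change stayed between -0.35 and -0.25, while the number of calls over all genes also moved (closing section).

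**Figure D2:**
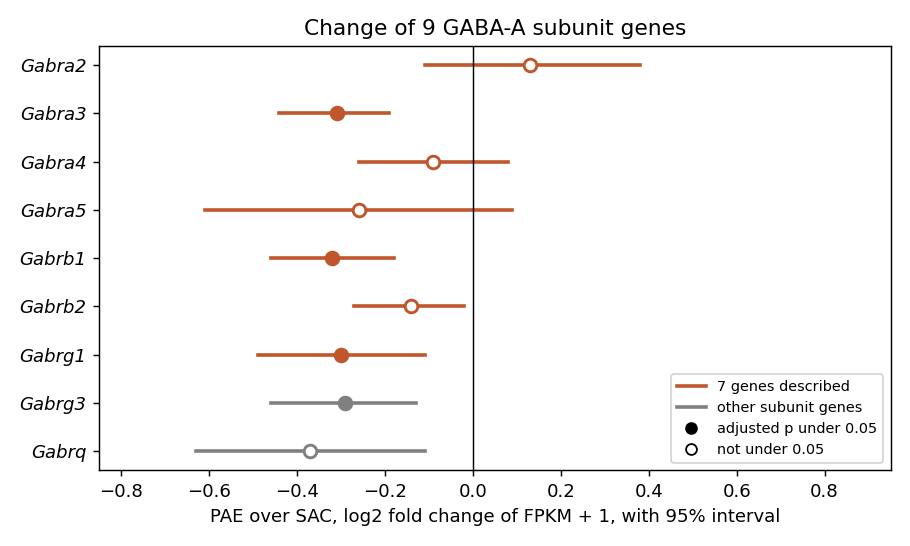
Log2 fold change of FPKM + 1, PAE over SAC (horizontal axis), with its 95% interval from limma, for the 7 subunit genes and for *Gabrg3* and *Gabrq*, in order of class. Filled points passed an adjusted p of 0.05. *Gabra2* is the only gene right of 0, and *Gabra3*, *Gabrb1* and *Gabrg1* are the 3 filled points among the 7 genes described.

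Regional markers also differed between the groups, but the lists below were not tested against the subunit genes brain by brain. Of all genes tested, 5.22% were lower and 4.34% were higher. Of 12 forebrain markers 8 were higher and none was lower in PAE brains (limma), with summed levels of 372 to 501 FPKM in PAE brains and 227 to 367 FPKM in SAC brains. Of 10 tested midbrain and hindbrain markers 4 were lower and none higher, with sums of 2.0 to 31.9 FPKM in PAE brains and 23.6 to 48.5 FPKM in SAC brains, and the defining genes *Tlx3*, *Slc6a5* and *Tph2* were listed at 0 in at least 1 PAE brain and in no SAC brain. Astrocyte markers were lower in 2 of 6 (*Aqp4* and *Aldh1l1*), summing to 263 to 325 FPKM in PAE brains and 298 to 353 FPKM in SAC brains, and oligodendrocyte lineage markers in 2 of 4. Of 6 tested thalamus and hypothalamus markers 2 (*Ntng1* and *Rora*) were lower and all 6 were negative, with sums of 34.9 to 63.1 FPKM in PAE brains and 60.4 to 74.6 FPKM in SAC brains. Of 4 endothelial markers *Flt1* was lower. None of 12 pan-neuronal and none of 5 microglial markers passed. ES19-4 and SAC12-6 were also left out, a choice made after the data were seen. Of 12348 genes 1150 were then lower and 967 higher, against 644 and 536 of 12346 with all brains. Without these 2 brains the same 3 subunit genes passed. *Gabra3* was at -0.36 (adjusted p = 0.00228), *Gabrb1* at -0.34 (adjusted p = 0.0127) and *Gabrg1* at -0.34 (adjusted p = 0.0361). *Gabra2* was then at 0.12, *Gabra4* at -0.11, *Gabra5* at -0.38 and *Gabrb2* at -0.14, and none of them passed (adjusted p between 0.123 and 0.525). With the Hox level as a covariate the 3 fold changes were -0.23, -0.27 and -0.26 and none passed (adjusted p = 0.226, 0.236 and 0.365), and no gene of the 12346 did.

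**Figure D3:**
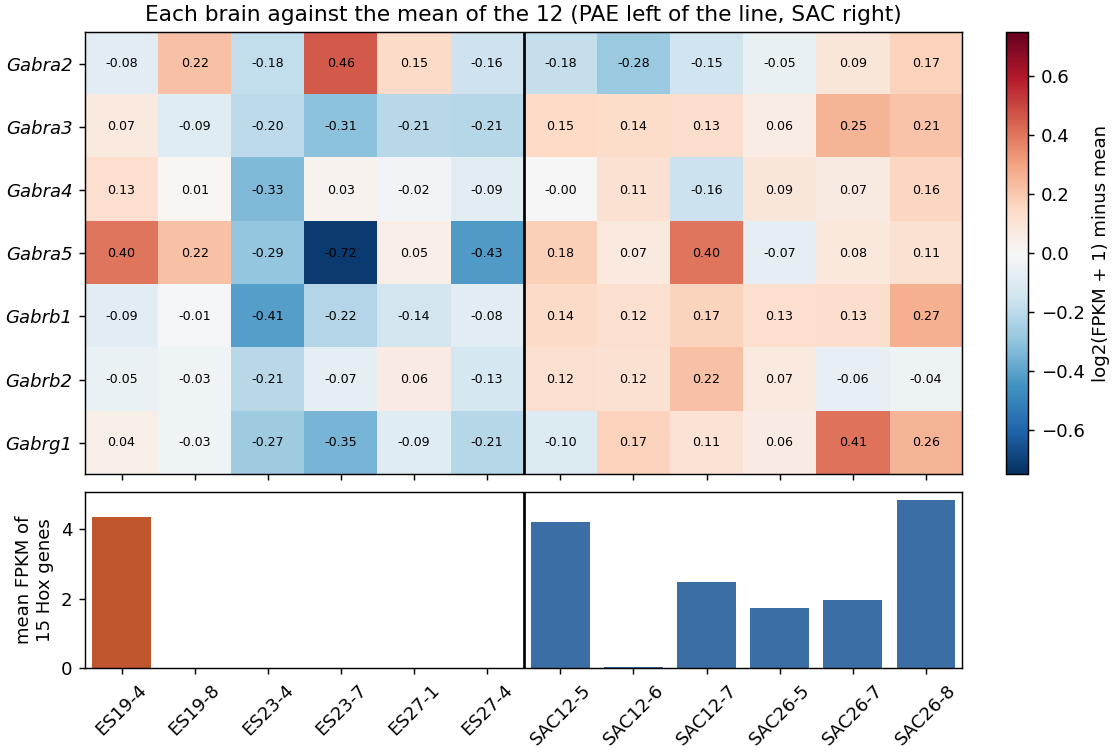
Upper panel, log2(FPKM + 1) of each subunit gene in each brain minus that gene's mean over the 12 brains (colour and printed value), with PAE brains left of the line and SAC brains right. Lower panel, mean FPKM of 15 Hox genes per brain. ES19-4, at 4.32 FPKM of Hox, is the PAE brain with the highest *Gabra3*, *Gabra4*, *Gabra5* and *Gabrg1*. SAC12-6, at 0.0309 FPKM of Hox, is the SAC brain with the lowest *Gabra2* and *Gabrb1*. Its *Gabra3* (26.5 FPKM), *Gabrb1* (5.17 FPKM) and *Gabrg1* (4.84 FPKM) lie above every PAE brain.

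The brains did not carry the differences evenly. ES19-4 had the highest value among PAE brains for 4 of the 7 genes and the lowest for none. ES23-4 had the lowest for 4 and ES23-7 the lowest for 3, so that these brains of prefix ES23 gave all 7 of the lowest PAE values. Among SAC brains, SAC26-8 had the highest value for 3 genes and the lowest for none. Without SAC26-8 *Gabrb1* narrowly missed the threshold (adjusted p = 0.0528) and only *Gabra3* passed. *Gabra3* passed with each brain left out in turn (adjusted p between 0.00198 and 0.0484). When the brains of each prefix were averaged to 1 value, leaving 3 PAE and 2 SAC values, the fold changes were -0.31, -0.32 and -0.30 and none passed (adjusted p = 0.231, 0.247 and 0.271), nor did any other gene.

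Within each sex, with 3 brains a group, no subunit gene passed the test in either males or females. Of all genes, 0.0324% passed in males and 0% in females. The direction was the same in both sexes for all 7 genes. *Gabra3* averaged 21.3 ± 0.999 FPKM in male PAE brains and 27.0 ± 0.904 FPKM in male SAC brains, a log2 fold change of -0.33, and 21.7 ± 3.16 FPKM in female PAE brains and 26.9 ± 1.87 FPKM in female SAC brains, a log2 fold change of -0.30 (SD, n = 3 each). *Gabrb1* averaged 4.01 ± 0.696 FPKM in male PAE brains and 5.45 ± 0.343 FPKM in male SAC brains, a log2 fold change of -0.37. In females it averaged 4.18 ± 0.278 FPKM in PAE brains and 5.22 ± 0.0352 FPKM in SAC brains, a log2 fold change of -0.26. At an unadjusted p under 0.05, *Gabra3*, *Gabrb1* and *Gabrg1* were lower in males, where 9.9% of all genes were, and *Gabra3* and *Gabrb1* in females, where 7.59% were.

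The sex difference in the response was itself tested and no subunit gene passed, where 0.0081% of all genes did, and none was under an unadjusted p of 0.05, where 3.95% were. The interaction (female change minus male change) had its smallest unadjusted p in *Gabrb1*, at 0.442, with an estimate of 0.11 on the log2 scale and a 95% interval of -0.19 to 0.41. For *Gabra5* the interval was -0.84 to 0.62, which is wide beside its fold changes of -0.31 in females and -0.21 in males. Between females and males over both treatments, none of the 7 genes passed (0.0324% of all genes did) or had an unadjusted p under 0.05 (2.73% did), and the largest estimate was -0.19 in *Gabra5*. Without ES19-4, *Gabra3* passed in females, where 297 lower and 167 higher genes of 12341 then passed, against none with all brains.

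Further subunit genes of the receptor were also read. *Gabrg3* averaged 1.61 ± 0.312 FPKM in PAE brains and 2.18 ± 0.147 FPKM in SAC brains, a log2 fold change of -0.29 (limma adjusted p = 0.0348). The *Gabrg3* call was lost in 6 of 15 alternatives and when any of 8 brains was left out (adjusted p up to 0.0771), and held without ES19-4 and SAC12-6 (adjusted p = 0.0195). *Gabrq* averaged 1.19 ± 0.438 FPKM in PAE brains and 1.79 ± 0.214 FPKM in SAC brains, with a log2 fold change of -0.37, and did not pass (limma adjusted p = 0.0676). It passed without ES19-4 (adjusted p = 0.0185), its highest PAE brain at 1.77 FPKM, and without both ES19-4 and SAC12-6 (adjusted p = 0.0228). Calls over all genes rose too, from 644 lower and 536 higher to 1271 and 1108 without ES19-4. Without both brains they were 1150 and 967. *Gabre* was under the minimum for testing, at 0.296 ± 0.101 FPKM in PAE brains and 0.631 ± 0.105 FPKM in SAC brains. *Gabra6*, *Gabrd*, *Gabrp* and the rho subunit genes were absent, by symbol, from the 13770 gene models and could not be analysed.

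FPKM are per length, so the levels of the subunit genes can be ranked within a group. In PAE brains *Gabra5* (22.0 FPKM) and *Gabra3* (21.5 FPKM) stood highest of the 7 and their ranges overlapped. *Gabra2* (9.95 FPKM) and *Gabrb2* (6.98 FPKM) came next, and their ranges overlapped neither each other nor those above and below. *Gabrb1* (4.10 FPKM), *Gabra4* (3.71 FPKM) and *Gabrg1* (3.68 FPKM) formed a row of overlapping neighbours. In SAC brains *Gabra3* (26.9 FPKM) stood above *Gabra5* (25.8 FPKM) and *Gabrg1* (4.78 FPKM) above *Gabra4* (4.00 FPKM), and both pairs overlapped, as did *Gabra2* (8.90 FPKM) and *Gabrb2* (7.81 FPKM).

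At the level of transcripts none of the 13 passed, and neither did any of the 29097 tested (limma, 0%), although at an unadjusted p under 0.05 5 of the 13 were lower and none higher, where 7.06% of all transcripts were lower and 5.83% were higher. Transcript FPKM are estimates that divide reads between overlapping models, and a gene's FPKM is not their sum. *Gabrb1-201*, from the inner start printed above, gave 90.7% of the listed *Gabrb1* FPKM in PAE brains and 90.6% in SAC brains. It averaged 4.10 ± 0.486 FPKM in PAE brains and 5.34 ± 0.255 FPKM in SAC brains, a log2 fold change of -0.32 (limma adjusted p = 0.126). *Gabrb1-202*, which starts 192 bases from the outer start site, averaged 0.424 ± 0.210 FPKM in PAE brains and 0.559 ± 0.178 FPKM in SAC brains. *Gabra3-201* gave 98.5% of the listed *Gabra3* FPKM in PAE brains and 98.1% in SAC brains, with a log2 fold change of -0.31 (limma adjusted p = 0.116), and it alone of the 13 passed when ES19-4 was left out.

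*Gabra5* has 3 listed transcripts, none of which passed, and a difference between them was not tested. *Gabra5-203* averaged 13.9 ± 5.01 FPKM in PAE brains and 20.3 ± 1.54 FPKM in SAC brains, a log2 fold change of -0.61 (unadjusted p = 0.0248, limma adjusted p = 0.307). Of the PAE brains, 2 reached the SAC range, at 18.3 FPKM each, and ES23-7 was lowest at 5.22 FPKM. *Gabra5-201* (6.80 ± 2.79 FPKM in PAE brains and 6.50 ± 2.04 FPKM in SAC brains) and *Gabra5-202* (6.35 ± 2.28 FPKM in PAE brains and 5.43 ± 1.59 FPKM in SAC brains) had log2 fold changes of 0.02 and 0.16. *Gabrg1-203* ranged from 0 to 0.878 FPKM in PAE brains and from 0 to 2.85 FPKM in SAC brains, beside *Gabrg1-201* at 5.83 ± 0.636 FPKM in PAE brains and 6.91 ± 1.03 FPKM in SAC brains. The single listed transcript of *Gabra2* ranged from 2.31 to 11.0 FPKM in PAE brains and from 2.21 to 10.2 FPKM in SAC brains, far more widely than the gene.

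**Figure D4:**
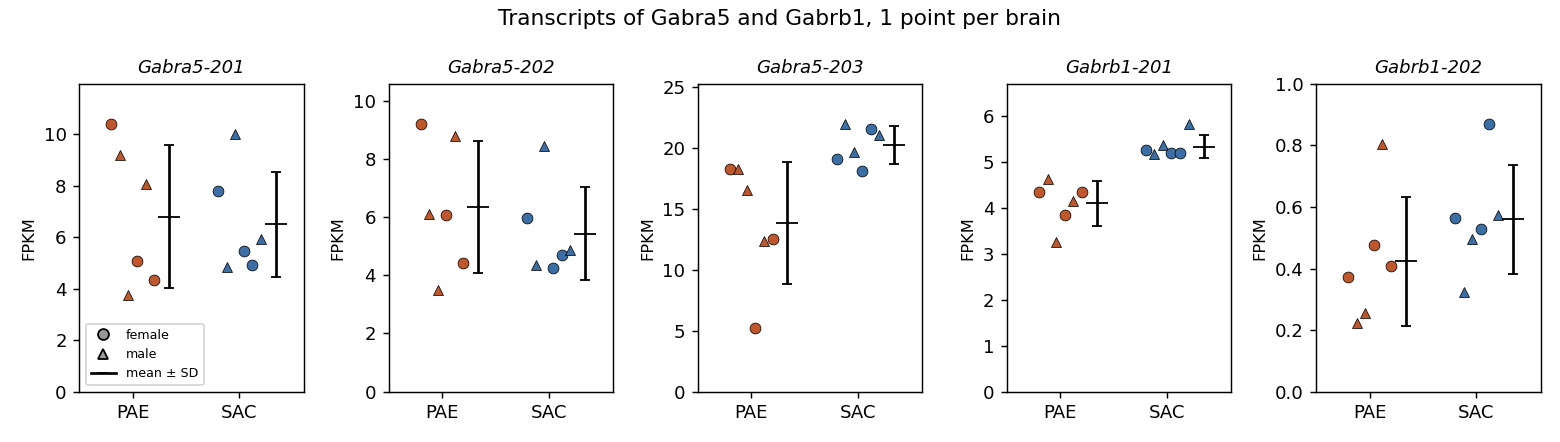
FPKM of the 3 listed *Gabra5* transcripts and of the 2 of *Gabrb1* (vertical axes, from 0) in PAE (left) and SAC (right) brains, 1 point per brain, circles for females and triangles for males, with the mean ± SD (n = 6 per group). *Gabrb1-201* keeps the groups apart, and *Gabra5-203* is spread from 5.22 to 18.3 FPKM in PAE brains.

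Genes that handle GABA had a log2 fold change below 0 in all 8 that were tested, against 48.3% of all genes. Of these 8, 3 were lower, where 5.22% of all genes were. *Slc6a11*, the GABA transporter GAT-3 of astrocytes, averaged 13.7 ± 4.88 FPKM in PAE brains and 23.3 ± 4.54 FPKM in SAC brains, a log2 fold change of -0.76 (limma adjusted p = 0.0280). *Abat*, the transaminase that degrades GABA, averaged 9.75 ± 0.989 FPKM in PAE brains and 12.8 ± 0.979 FPKM in SAC brains (limma adjusted p = 0.0189), and *Aldh5a1*, the next enzyme of that route, 10.2 ± 1.2 FPKM in PAE brains and 13.3 ± 0.812 FPKM in SAC brains (limma adjusted p = 0.0196). The synthesising enzymes did not pass, *Gad1* at -0.17 on the log2 scale (limma adjusted p = 0.101) and *Gad2* at -0.04 (limma adjusted p = 0.580), nor did the vesicular transporter *Slc32a1* at -0.24 (limma adjusted p = 0.0844).

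Of 22 genes for receptor anchoring and traffic, 4 were lower and none higher, where 5.22% of all genes were lower and 4.34% higher. *Gphn*, whose product gephyrin is the scaffold of inhibitory synapses, averaged 17.4 ± 1.37 FPKM in PAE brains and 20.5 ± 1.00 FPKM in SAC brains, a log2 fold change of -0.22 (limma adjusted p = 0.0254). *Hap1* and *Nsf*, which take part in the recycling of receptors to the membrane, had log2 fold changes of -0.63 and -0.46, and *Arfgef2*, which acts in their export from the Golgi, -0.27 (limma adjusted p between 0.0197 and 0.0356). The remaining 18 did not pass, among them *Nlgn2* at -0.03 and *Gabarap* at 0.04 on the log2 scale. None of 9 genes of chloride transport passed. *Slc12a5*, the chloride exporter KCC2, averaged 10.6 ± 2.74 FPKM in PAE brains and 15.2 ± 1.87 FPKM in SAC brains (log2 fold change -0.50, limma adjusted p = 0.0507), and *Slc12a2*, the importer NKCC1, 10.3 ± 1.42 FPKM in PAE brains and 9.87 ± 0.657 FPKM in SAC brains (limma adjusted p = 0.720). Of genes for endogenous modulators of the receptor, *Dbi*, the diazepam binding inhibitor (log2 fold change -0.03), and *Srd5a1*, an enzyme of neurosteroid synthesis (log2 fold change -0.16), were tested and neither passed.

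The genes most like each subunit gene over the 12 brains were named by Pearson's r on log2(FPKM + 1), as a description, since the points share the difference between the groups. For *Gabra3* they were *Lhfpl3* (r = 0.99), *Enpp5* (0.98) and *Tmem229a* (0.98), for *Gabrb1* *Fam13b* (0.98), *Ank2* (0.97) and *Afg1l* (0.96), and for *Gabrg1* *Spock2* (0.94), *Bcan* (0.94) and *Pla2g3* (0.93). The closest to *Gabra2* was *Nenf* (0.91), to *Gabra4* *Gm8206* (0.86), to *Gabra5* *2900011O08Rik* (0.94) and to *Gabrb2* *Ptgr2* (0.93). No subunit gene was among the 3 most like any of the 7.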

How the data were processed

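RNA of 12 whole brains was sequenced by the authors as paired ends after poly-A selection and a stranded kit. The submitters' processing notes name FastQC, cutadapt, HISAT2 and StringTie, and the paper adds Ballgown, with no version and no word on the use of strand. Per the authors, the deposited unit is FPKM per gene and per transcript, which keeps no read depth. Loci of 12077 of 13770 gene models equal GENCODE M21 (GRCm38).

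Genes averaging 1 FPKM or more (12346) and all 29097 transcripts (each averaging 0.1 FPKM or more) were tested on log2(FPKM + 1), which understates changes of low genes, with limma 3.58.1 in R 4.3.3 (trended empirical Bayes, Benjamini-Hochberg adjustment over all features, threshold 0.05). PAE and SAC were compared over 12 brains, and sexes in 1 fit of 4 groups. Single genes were also tested by two-sided exact permutation. Groups came from the labels, and the code was tested on simulated data. The closing section gives the alternatives. Named were the 7 subunit genes, further subunit genes, the called genes and up to 4 with the smallest p of each pathway list, and the 3 genes most like each subunit gene. *Nlgn2*, *Gabarap* and *Slc12a2* were added after their values were seen. The members and lists were chosen with earlier results of these data known. Some items, among them other genes and the comparison of subunit shares, are not reported here.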

Additional observations from a re-analysis of the deposited data

Results flagged for a closer look

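Of 26 groups of brains examined, 1 had a brain far from the others by Dixon's criterion. *Gabrb1* in SAC26-8 was 5.83 FPKM, while the other 5 SAC brains lay between 5.17 and 5.36 FPKM, and the gap took a fraction of 0.713 of the group's range (critical value 0.625 for 6 brains). The criterion picks about 1 in 20 groups by chance.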

How the results depend on the processing

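The count of 3 lower subunit genes became 0 with the means of each name prefix and 0 with the Hox level as a covariate, and ranged from 1 (without SAC26-8) to 3 with 1 brain left out. It was 2 or 3 under the other 12 alternatives fixed at the start and 3 without ES19-4 and SAC12-6. *Gabra3* and *Gabrb1* passed in 13 of these 15 alternatives and *Gabrg1* in 3 of 15, all with the same sign. In females the count of 0 ranged from 0 to 1 with 1 brain left out (1 without ES19-4), and for transcripts likewise from 0 to 1. *Gabra2* was negative (-0.04) for sums of transcripts and positive in the other 14. Scaling to pan-neuronal genes moved the median log2 fold change of all genes to 0.0655 (0.105 in males), against 0.00516. Over all genes, 644 lower and 536 higher calls became 62 and 69 without SAC26-8 and 1271 and 1108 without ES19-4. No paired analysis was possible because the replicate numbers of PAE and SAC brains come from no shared label. Depth per library is unknown, so the counting error of low values cannot be given.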
